A study of Mus musculus with 6 samples.

Results

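This report describes 39 interferon-stimulated and nucleic acid sensing genes chosen by gene symbol, from a list that applies no threshold to measured values, among 55471 genes in a count table of cultured mouse osteoblasts. RNA-seq was run on primary osteoblasts, the bone-forming cells released from the skull vault by enzyme digestion and grown in culture for 3 days. There were 3 wild-type (WT) libraries and 3 libraries of Tet1/2/3 triple conditional knockout (TCKO) cells. The comparison of TCKO with WT asked which transcripts differ when the TET dioxygenases, which oxidise 5-methylcytosine in DNA, are deleted in this lineage. All mice were C57BL/6 and 3 days old. The TCKO mice carried Prx1-Cre together with Tet1fl/fl, Tet2fl/fl and Tet3fl/fl, whereas the WT mice are described only as wild type, with no statement of Cre or floxed alleles. Prx1-Cre is active in mesenchyme of the limbs and part of the skull, so blood-derived cells in such a culture would keep intact Tet genes. The labels do not say whether libraries of one genotype came from separate animals or cultures, so the p-values below measure only the spread between these libraries.

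Total counts ran from 8019999 to 10177214 per library, and the limit that a count of 0 allows (3 counts) was 0.299 to 0.373 CPM (counts scaled to library size), counting error only. Tet1 was lower in TCKO (12.96 ± 1.04 against 6.61 ± 1.05 CPM, SD, n = 3 each), Tet2 was 18.8 ± 2.66 against 17.1 ± 1.77 CPM, and Tet3 was higher at 58.2 ± 3.13 against 82.6 ± 7.14 CPM. These are counts over whole genes, so they do not check the loss of the floxed exons. Replicate 3 of each genotype stood apart from replicates 1 and 2: the chi-square per degree of freedom between libraries of one genotype was 1.69 and 2.04 for replicates 1 and 2, and 16.5 to 23.3 for pairs with replicate 3. Mitochondrial transcripts made up 2.22% and 2.47% of counts in the replicate 3 libraries and 1.11% to 1.24% in the others. Xist, which female cells express, gave 4583 counts in TCKO replicate 3, where the Y-linked Ddx3y gave 0, while the other 5 libraries were male by these genes. Results are therefore given over all 6 libraries, without TCKO replicate 3, and within replicates 1 and 2.

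Cells detect foreign or misplaced nucleic acid with cytosolic receptors. RIG-I (Ddx58) and MDA5 (Ifih1) bind RNA and signal through Mavs, whereas cGAS (Cgas) binds DNA and signals through Sting1. Either route can switch on interferons, which bind receptors on the same or neighbouring cells and activate STAT2 and IRF9, among other factors. These bind the interferon-stimulated response element (ISRE) in the promoters of interferon-stimulated genes, whose products block viral replication at many steps. Osteoblasts express the receptors and respond to interferon, which is known in bone mainly as a restraint on osteoclast formation.

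Promoter windows of 300 bases (250 before and 50 after the RefSeq start, build GRCm38.p6) were at hand for 30 of the 39 genes, some with several starts. An ISRE core, GAAANNGAAA on either strand, was found in a window of 13 of the 30 genes (43.3%), against 3.99% of the 27025 genes with a window. The gamma-activated site TTCNNNGAA, which is the same on both strands, was found for 10 of 30 (33.3%) against 9.55% of all genes. The median observed over expected CpG content, taking each gene's highest window, was 0.455 for these genes and 0.415 over all genes. The sequences below are 30-base windows of the gene strand around matches upstream of the start, with the ISRE core in capitals. The first 5 lines come from 4 genes that were higher in TCKO replicates 1 and 2, and the last 2 from genes with a match and little genotype difference there.
Ifit1, chr19:34640775-34640804, plus strand: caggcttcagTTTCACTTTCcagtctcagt
Ifit1, chr19:34640794-34640823, plus strand: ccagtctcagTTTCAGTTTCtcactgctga
Ifit3, chr19:34583363-34583392, plus strand: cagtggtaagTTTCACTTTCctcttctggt
Isg15, chr4:156200871-156200900, minus strand: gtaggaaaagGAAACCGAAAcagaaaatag
Bst2, chr8:71537583-71537612, minus strand: ggcattccagGAAAATGAAActgaaaggct
Gbp2, chr3:142620594-142620623, plus strand: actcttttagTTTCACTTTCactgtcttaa
Stat2, chr10:128270266-128270295, plus strand: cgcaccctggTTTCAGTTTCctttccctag
In the Isg15 window the core shown is the middle one of 3 overlapping matches, and in Bst2 it is the first of 2. A match describes these letters only and does not show that a factor binds there.

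Over all 6 libraries few of the genes differed between genotypes. Of the 39, 33 passed the filter on low counts and were tested. At an edgeR adjusted p under 0.05, 1 was higher in TCKO (Ddx58), where 9.07% of the 13826 tested genes were higher, and 3 were lower (Isg20, Xaf1 and Ifngr1), where 8.63% were lower. Isg20 and Xaf1 also exceeded a 2-fold difference, as did 6.35% of all tested genes. The median of their 33 log2 fold changes was 0.09, 19 being above 0, and the median over all tested genes was 2.0e-04. In 6 of the 33 (Isg20, Xaf1, Ifngr1, Ddx58, Mavs and Sting1) the CPM values of the genotypes did not overlap, against 38.3% of all tested genes. The shares called were near or below those of the transcriptome at large, and the share without overlap was below it. Beneath these counts the libraries split: many interferon-stimulated genes were above WT in TCKO replicates 1 and 2 and at or below WT in TCKO replicate 3, which widened the TCKO spread.

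**Figure D1:**
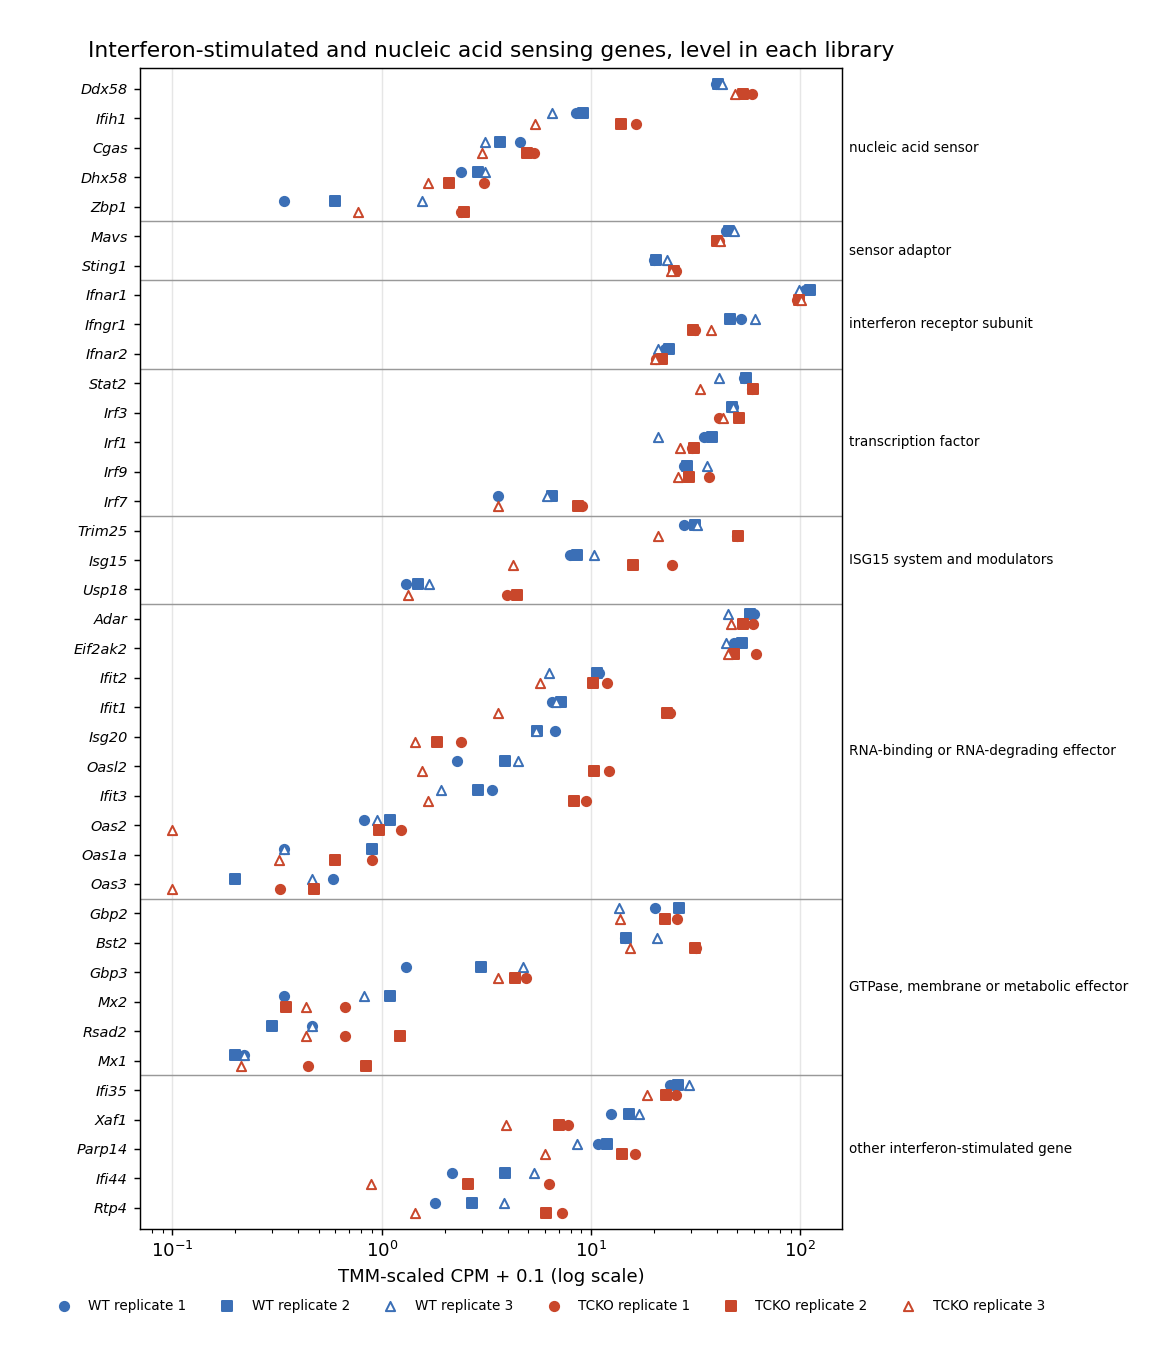
Level of each of the 39 genes in each library, as TMM-scaled CPM plus 0.1 on a log axis, with WT in blue and TCKO in red, filled symbols for replicates 1 and 2 and open triangles for replicate 3. For Ifit1, Isg15 and Oasl2 the filled red symbols lie to the right of all blue symbols and the open red triangle to the left of them, whereas for Isg20, Xaf1 and Ifngr1 all 3 red symbols lie to the left.

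The interferons themselves were not seen. None of 8 interferon genes examined (Ifnb1, Ifna2, Ifna4, Ifng, Ifne, Ifnk, Ifnl2 and Ifnl3) had a count in any library, which places each of them under the limit given above rather than showing its absence. Other members of the interferon alpha family were not examined. All 3 receptor subunits on the list were expressed. Ifngr1, the ligand-binding chain of the interferon gamma receptor, fell in TCKO, and its level was among the highest of the genes per transcript length, at 18.5 RPKM in WT. Its CPM values were 51.7, 46.0 and 60.6 in WT and 31.2, 30.4 and 37.2 in TCKO. All 3 TCKO values lay below all WT values, and the difference was as large in replicate 3 (-0.69 on the log2(CPM + 1) scale) as in replicates 1 and 2 (-0.65). The edgeR log2 fold change was -0.68 ± 0.13 (SE), with an adjusted p of 0.0102. The call was lost where the counts of replicates 1 and 2 were summed (adjusted p = 0.113), and it held in the other 17 alternative edgeR and DESeq2 fits.

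The chains of the receptor for type I interferons were nearly level. Ifnar1 gave 105 ± 6.51 CPM in WT and 98.4 ± 2.19 in TCKO (SD, n = 3 each), or -0.09 ± 0.07 on the log2 scale (SE, edgeR adjusted p = 0.431). Within replicates 1 and 2 alone this value was -0.16 (edgeR adjusted p = 0.0254). Ifnar2 gave 22.2 ± 1.33 and 20.7 ± 0.796 CPM, or -0.10 ± 0.10 on the log2 scale (SE, edgeR adjusted p = 0.542). Neither difference was past the threshold over all 6 libraries.

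Of 5 nucleic acid sensors, the RNA sensor Ddx58 was called higher in TCKO over all 6 libraries, the only such call on the list. It had 39.5, 40.4 and 41.9 CPM in WT and 58.9, 52.8 and 48.5 CPM in TCKO. Every TCKO value was above every WT value, with the smallest excess in replicate 3. The edgeR log2 fold change was 0.39 ± 0.09 (SE), a modest difference with an adjusted p of 0.0233. The call rested on few libraries: it was lost when WT replicate 1 (adjusted p = 0.0963), WT replicate 2 (0.0897), TCKO replicate 1 (0.0830) or TCKO replicate 2 (0.0736) was left out, and with replicates 1 and 2 summed without (0.226) or with the replicate block (0.139), all by edgeR. An ISRE core was found in the Ddx58 window, just after the start.

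Ifih1, which encodes the sensor of long double-stranded RNA, had 8.35, 9.08 and 6.42 CPM in WT and 16.3, 13.8 and 5.27 CPM in TCKO. Replicates 1 and 2 of TCKO were above all WT libraries and replicate 3 below all of them. Its log2 fold change over all 6 libraries was 0.56 ± 0.38 (SE, edgeR adjusted p = 0.353), and within replicates 1 and 2 it was 0.79 ± 0.16 (edgeR adjusted p = 1.6e-05). Zbp1, a sensor of left-handed nucleic acid that can trigger necroptosis, was scarce, with counts of 2, 5 and 12 in WT and 20, 19 and 6 in TCKO. Only TCKO replicates 1 and 2 exceeded every WT library, and WT replicate 3 had more than TCKO replicate 3. The DNA sensor Cgas had 3.70 ± 0.731 CPM in WT and 4.34 ± 1.25 in TCKO, and Dhx58, a modulator of the RNA sensors, had 2.71 ± 0.372 and 2.18 ± 0.717 (SD, n = 3 each). The edgeR adjusted p was 0.628 for Cgas and 0.521 for Dhx58, whose exons overlap an antisense transcript, Dhx58os.

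The adaptors sat close together in each genotype. Mavs, the mitochondrial adaptor of the RNA sensors, had 44.0, 45.5 and 48.2 CPM in WT and 40.5, 39.9 and 41.3 in TCKO. Sting1, the adaptor of the cGAS route, had 19.9, 20.4 and 23.0 CPM in WT and 25.3, 24.9 and 23.9 in TCKO. Both pairs of groups were without overlap, in opposite directions, yet neither passed over all 6 libraries (log2 fold change -0.18 ± 0.08, edgeR adjusted p = 0.146 for Mavs, and 0.23 ± 0.10, edgeR adjusted p = 0.162 for Sting1). Within replicates 1 and 2 Sting1 was higher by 0.32 (edgeR adjusted p = 0.0151) and Mavs had an edgeR adjusted p of 0.130.

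None of the 5 transcription factors passed over all 6 libraries. Irf3, which acts downstream of the sensors and their adaptors, stood at 47.4 ± 0.33 CPM in WT and 44.8 ± 5.46 in TCKO (SD, n = 3 each, edgeR adjusted p = 0.613). Irf7, the interferon-induced factor that amplifies the response, had 3.51, 6.39 and 6.06 CPM in WT and 8.90, 8.58 and 3.48 CPM in TCKO. TCKO replicates 1 and 2 were above all WT libraries. TCKO replicate 3 was level with the lowest of them, WT replicate 1 (31 and 29 counts). Its exons overlap those of Phrf1 on the opposite strand, which had 5105 counts in all against 321 for Irf7, and the strand setting of the counting is not given in the sources used here. Irf9, the DNA-binding partner of STAT2, had 30.7 ± 4.33 and 30.5 ± 5.29 CPM, and shares exonic positions on the same strand with Rnf31. Stat2 had 49.8 ± 7.83 and 50.4 ± 14.9 CPM. Irf1, which interferon gamma induces, had 34.5, 37.9 and 20.7 CPM in WT and 30.4, 31.1 and 26.4 CPM in TCKO, so that in replicate 3 the TCKO library was the higher and in replicates 1 and 2 the lower. The edgeR adjusted p over all 6 libraries was 0.536 for Irf7, 0.984 for Irf9, 0.973 for Stat2 and 0.805 for Irf1.

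The ISG15 system consists here of Isg15, a ubiquitin-like protein that is attached to other proteins, Usp18, which removes it and also damps the interferon receptor, and Trim25, a ligase that assists RIG-I. Isg15 had 7.87, 8.48 and 10.2 CPM in WT and 24.2, 15.8 and 4.15 CPM in TCKO. Trim25 had 27.6, 31.4 and 31.9 CPM in WT and 49.8, 50.2 and 20.9 CPM in TCKO. For both genes TCKO replicates 1 and 2 lay above all WT libraries and TCKO replicate 3 below all of them. Usp18 had counts of 10, 14 and 13 in WT and 34, 35 and 11 in TCKO. All 3 were higher within replicates 1 and 2 (log2 fold change 1.30 for Isg15, 1.64 for Usp18 and 0.75 for Trim25, with edgeR adjusted p-values of 5.7e-11, 3.4e-05 and 1.8e-11). Over all 6 libraries none passed (edgeR adjusted p = 0.374, 0.128 and 0.392).

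Among 10 effectors that bind, edit or degrade RNA, the one call was the fall of Isg20, an exonuclease that degrades single-stranded RNA. Its counts were 55, 54 and 44 in WT and 20, 14 and 12 in TCKO. All TCKO libraries were below all WT libraries, in replicate 3 as well as in replicates 1 and 2. The mean level was 5.79 ± 0.75 CPM in WT and 1.79 ± 0.47 in TCKO (SD, n = 3 each), and the edgeR log2 fold change was -1.69 ± 0.26 (SE, adjusted p = 0.00435). With replicates 1 and 2 summed the adjusted p was 0.0694, and Isg20 has too few counts for the fit on genes averaging at least 50. No ISRE core was in its 3 promoter windows.

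The IFIT genes form a chromosome 19 cluster, and the protein of Ifit1 binds foreign RNA 5′ ends. Ifit1 had counts of 53, 71 and 55 in WT and 207, 185 and 31 in TCKO, or 6.72 ± 0.338 and 16.7 ± 11.5 CPM (SD, n = 3 each). Ifit3 had counts of 27, 28 and 15 in WT and 82, 66 and 14 in TCKO. In both, TCKO replicates 1 and 2 exceeded every WT library and TCKO replicate 3 fell short of every one, for Ifit3 only narrowly (14 counts against 15). Over all 6 libraries the log2 fold changes were 1.31 ± 0.58 (SE) for Ifit1 and 1.27 ± 0.58 for Ifit3, with edgeR adjusted p-values of 0.166 and 0.177. With the replicate number as a block, Ifit3 passed (log2 fold change 1.18, edgeR adjusted p = 0.0470), so that 2 genes of the list were higher under the pairing, where 12% of all tested genes were. With replicates 1 and 2 summed, the same block left Ifit3 uncalled (edgeR adjusted p = 0.257). Ifit3 has a near-identical relative in the cluster, and how reads common to both were counted is not given in the sources used here. Ifit2 differed from its neighbours, with 10.8, 10.6 and 6.18 CPM in WT and 11.8, 10.1 and 5.61 CPM in TCKO. In this gene the replicate, not the genotype, separated the libraries, and the edgeR log2 fold change was -0.01 ± 0.31 (adjusted p = 0.986).

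Oasl2, of the oligoadenylate synthetase family, had counts of 18, 38 and 36 in WT and 106, 82 and 13 in TCKO. It followed the pattern of Ifit1, its log2 fold change being 1.87 ± 0.22 (SE) within replicates 1 and 2 (edgeR adjusted p = 2.6e-11) and 1.19 ± 0.64 over all 6 libraries (edgeR adjusted p = 0.249). Oas1a, Oas2 and Oas3 of the same family were near the counting limit and were not tested. Oas1a had 2 to 8 counts per library, Oas2 0 to 10 and Oas3 0 to 4. Eif2ak2, the kinase PKR that halts translation on double-stranded RNA, had 48.0 ± 4.26 CPM in WT and 51.3 ± 8.62 in TCKO, and Adar, which edits adenosine to inosine in such RNA, had 54.2 ± 7.95 and 52.9 ± 6.46 CPM (SD, n = 3 each). These were the most abundant effectors of the group in CPM and were not separated by genotype (edgeR adjusted p = 0.664 and 0.884).

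The GTPases and membrane or metabolic effectors comprised 6 genes, of which 3 were tested. Bst2, or tetherin, which holds budding virus at the cell surface, had 14.4, 14.6 and 20.6 CPM in WT and 31.5, 31.3 and 15.3 CPM in TCKO. TCKO replicates 1 and 2 were above all WT libraries, and TCKO replicate 3 lay within the WT range. The edgeR log2 fold change was 0.66 ± 0.28 (SE, adjusted p = 0.155) over all 6 libraries and 1.12 ± 0.11 (adjusted p = 1.3e-13) within replicates 1 and 2. Gbp2 and Gbp3 encode guanylate-binding proteins that attack pathogen vacuoles and resemble each other closely. Gbp2 had 20.1, 26.1 and 13.5 CPM in WT and 25.7, 22.4 and 13.7 in TCKO, with no separation, and Gbp3 had 1.21, 2.89 and 4.61 CPM in WT and 4.79, 4.23 and 3.48 in TCKO. Mx1 had 1 count in each WT library and 3, 6 and 1 in TCKO, Mx2 had 2 to 10 counts and Rsad2, or viperin, 2 to 9, so that none of these 3 was tested. Mx1 carries a deletion in most laboratory mouse strains.

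Of the 5 remaining interferon-stimulated genes, Xaf1, a promoter of apoptosis, fell in TCKO. It had 12.3, 15.1 and 16.9 CPM in WT and 7.65, 6.96 and 3.81 CPM in TCKO. The groups did not overlap, and the lowest value was TCKO replicate 3. The edgeR log2 fold change was -1.27 ± 0.26 (SE, adjusted p = 0.0135), and the call was lost without WT replicate 2 (adjusted p = 0.0589), with replicates 1 and 2 summed (0.104) and with that sum and the replicate block (0.0587). Rtp4, a chaperone of receptors, had counts of 14, 26 and 31 in WT and 63, 48 and 12 in TCKO, and Parp14, an ADP-ribosyltransferase, had 10.7, 11.8 and 8.48 CPM in WT and 16.1, 13.9 and 5.95 in TCKO. Both were highest in TCKO replicates 1 and 2 and lowest in TCKO replicate 3. The exons of Rtp4 overlap those of Gm45338 on the same strand. Ifi44 had counts of 17, 38 and 43 in WT and 54, 20 and 7 in TCKO, so that TCKO replicate 1 was above all WT libraries, replicate 2 within their range and replicate 3 below it. Ifi35 had 26.3 ± 2.88 CPM in WT and 22.2 ± 3.51 in TCKO, with an edgeR adjusted p of 0.286.

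**Figure D2:**
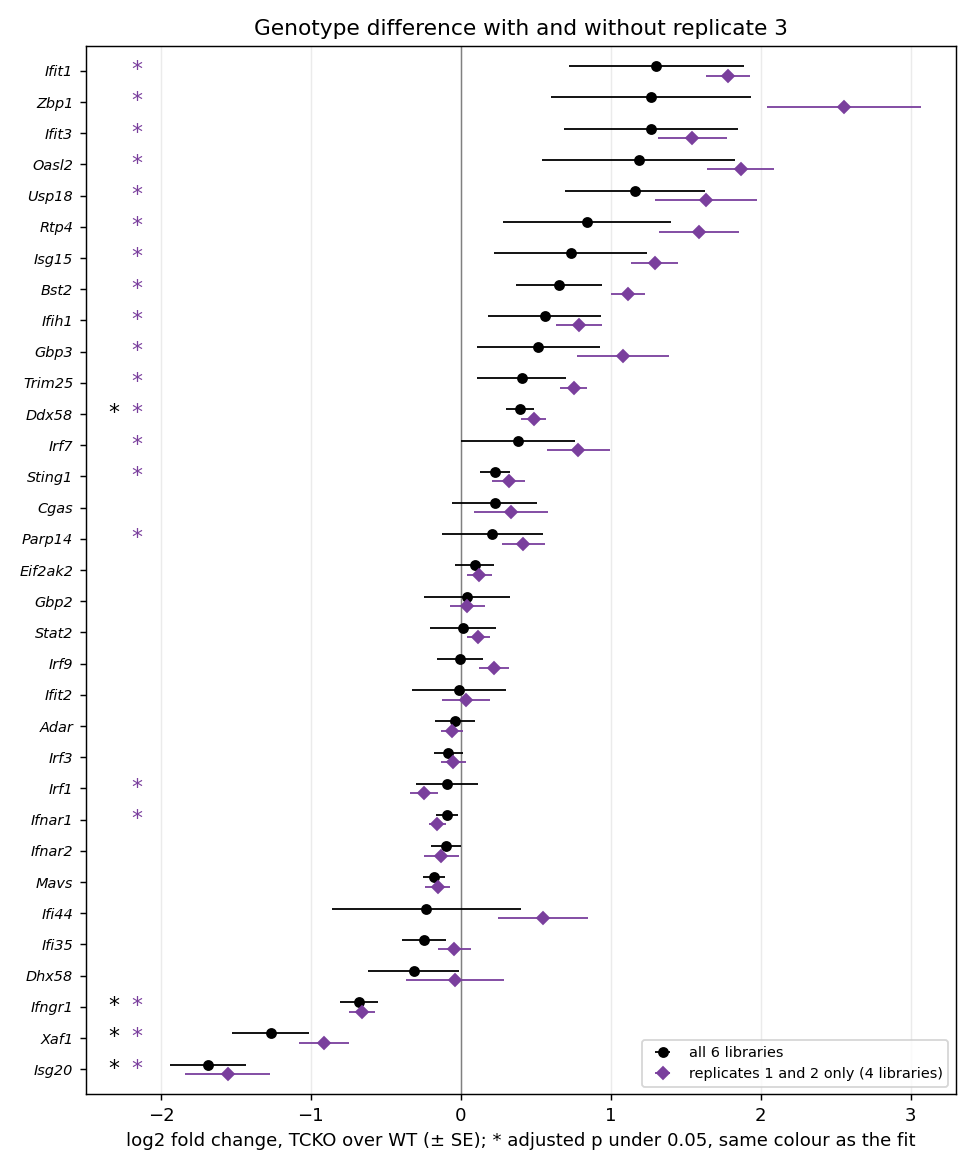
Log2 fold change of TCKO over WT (x axis, bars are SE) for the 33 tested genes, over all 6 libraries (black circles) and within replicates 1 and 2 only (purple diamonds, 4 libraries), with an asterisk of the same colour where the edgeR adjusted p was under 0.05. The black fit calls 1 gene higher and 3 lower, the purple fit 15 higher and 5 lower, and Isg20, Xaf1, Ifngr1 and Ddx58 are marked in both.

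Leaving out TCKO replicate 3 raised the number of higher genes from 1 to 10 (Ifit1, Ifit3, Isg15, Oasl2, Usp18, Ddx58, Ifih1, Bst2, Rtp4 and Trim25) and left 3 lower, by edgeR, where 10.7% of all tested genes were higher and 10.1% lower. On the TCKO side that fit holds only replicates 1 and 2, which were close to sequencing noise (chi-square per degree of freedom 2.04). WT keeps its replicate 3, so genotype is unbalanced against replicate set in these calls. Within replicates 1 and 2 of both genotypes, 15 genes were higher, adding Irf7, Sting1, Zbp1, Parp14 and Gbp3, where 22.6% of all tested genes were higher. In the same fit 5 were lower (Isg20, Xaf1, Ifngr1, Irf1 and Ifnar1), where 22.5% were lower. The 2 libraries of each genotype in this fit were close to sequencing noise, so its p-values rest on a small spread. With replicates 1 and 2 summed into 1 library per genotype, no gene of the list passed by edgeR, with 1 higher and 3 lower at an unadjusted p under 0.05. In that fit 1.57% of all tested genes were higher and 1.22% lower, so that 0 of 33 is near the share over all genes. DESeq2 on the 6 separate libraries called 1 higher and 3 lower.

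Set against the 3 WT libraries one at a time, TCKO replicate 1 was above all of them in 21 of the 33 genes (33.2% of all tested genes) and below all of them in 7 (33.5%). TCKO replicate 2 was above in 17 (33.6%) and below in 7 (33.4%). TCKO replicate 3 was above in 2 (35.8%) and below in 22 (34.8%). The list thus lay mostly above WT in the first pair of TCKO libraries and mostly below WT in the third.

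Within replicates 1 and 2 the median difference between TCKO and WT was 0.27 on the log2(CPM + 1) scale, with 22 of 33 genes above 0. Within replicate 3 it was -0.32, with 7 above 0, and 18 genes were positive in the former and negative in the latter, as were 14.8% of all tested genes. In replicate 3, 6 genes were lower by over 2-fold (3.72% of all tested genes) and 0 were higher by over 2-fold (3.41%). The difference between the replicate sets was tested as an interaction of genotype with replicate 3 in edgeR, a fit chosen after the data had been seen. At an interaction adjusted p under 0.05, TCKO minus WT, with its sign, was more negative in replicate 3 for 18 of the 33 genes. The share of all tested genes was 7.42%. The difference was more positive for 1, Irf1, against 7.08% of all tested genes. More negative can mean a smaller rise, a turn to below WT or, as in Xaf1, a greater fall. On the log2 scale, replicate 3 minus replicates 1 and 2 gave -2.72 for Ifit1 (edgeR adjusted p = 6.0e-09) and -1.36 for Trim25 (edgeR adjusted p = 1.6e-09). The spread in this fit comes only from the close replicates 1 and 2. Replicate 3 has 1 library per genotype, and its TCKO library is the female one beside a male WT library, so the replicate set, sex and any other property of these 2 libraries cannot be told apart.

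**Figure D3:**
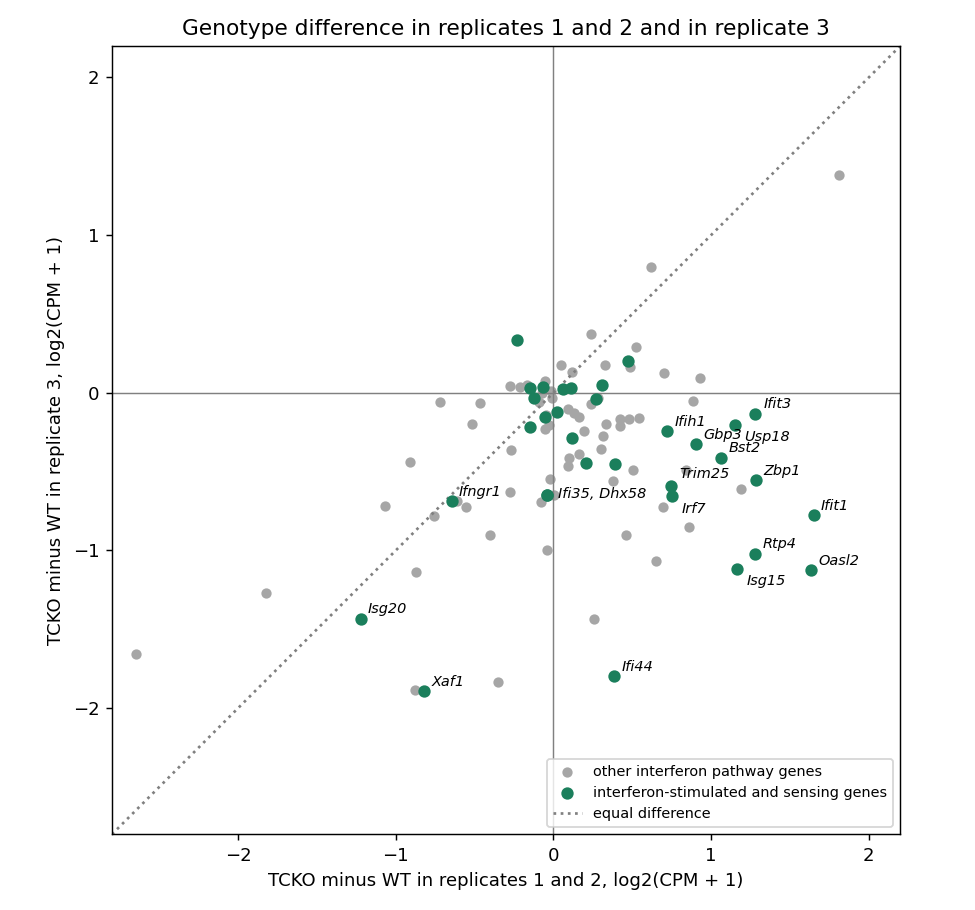
Difference between TCKO and WT within replicates 1 and 2 (x axis, mean of 2 libraries per genotype) and within replicate 3 (y axis, 1 library per genotype), both as log2(CPM + 1), for the 33 tested genes (green) and the 67 other tested pathway genes (grey), with a dotted line where the differences are equal. Of the green points, 18 lie to the right of 0 and below 0, whereas Isg20 and Ifngr1 lie near the dotted line at negative values.

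The pattern across replicates was not called in all roles. At an interaction adjusted p under 0.05 (edgeR), TCKO minus WT was more negative in replicate 3 in 7.42% of all tested genes. This call was made for all 3 genes of the ISG15 system, all 5 of the remaining interferon-stimulated genes and 3 of 5 transcription factors. The same held for 3 of 7 RNA effectors, 2 of 3 GTPase or membrane effectors and 2 of 5 sensors. It was made for 0 of 2 adaptors and 0 of 3 receptor subunits. With so few genes, 0 calls is near the share over all tested genes, so it does not set these roles apart. The adaptors Mavs (-0.07) and Sting1 (-0.27) were more negative in replicate 3 by sign without being called. For Isg20 and Ifngr1 the interaction was -0.42 ± 0.57 and -0.04 ± 0.15 (SE), with edgeR adjusted p-values of 0.715 and 0.899. For Xaf1 it was -1.22 ± 0.33 (edgeR adjusted p = 0.00463), a fall in both sets that was greater in replicate 3.

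Of the 27 tested genes with a promoter window, 10 had an ISRE core, and 7 of these were higher within replicates 1 and 2 and 0 lower, where 22.6% and 22.5% of all tested genes were, with a median log2 fold change of 0.94. Of the 17 without one, 3 were higher and 5 lower, with a median of -0.05. Gbp2 and Stat2, whose windows are printed above, belong to the genes with a core and were not called. The contrast leaves out the tested genes that lack a window. Among those, Usp18, Rtp4, Zbp1, Parp14 and Sting1 were higher within replicates 1 and 2 and Dhx58 was not called. The genes without a core include Mavs, Irf3 and the receptor subunits, so motif and role cannot be told apart here. Over all 6 libraries 1 of the 10 and 0 of the 17 were higher, so that the contrast rests on the fit with the small spread. At an interaction adjusted p under 0.05 (edgeR), 7 of the 10 and 7 of the 17 had TCKO minus WT more negative in replicate 3. The share of all tested genes was 7.42%.

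A wider list of 95 other genes of the pathway, of which 67 were tested, also gave few calls. Over all 6 libraries 2 were higher and 6 lower in TCKO by edgeR, near or below the 9.07% and 8.63% of all tested genes. The higher ones were Ifitm1, a membrane protein that blocks viral entry (counts of 17, 15 and 7 in WT and 76, 70 and 34 in TCKO, log2 fold change 2.25 ± 0.42 SE, edgeR adjusted p = 0.0101), and Irf5, which overlaps Tnpo3 on the opposite strand (0.80, adjusted p = 0.0397). The lower ones included Lgals9, a galectin, with counts of 979, 1062 and 682 in WT and 157, 131 and 228 in TCKO (log2 fold change -2.36 ± 0.20 SE, edgeR adjusted p = 3.4e-04). Ifi27 was lower by -1.19, the endosomal RNA sensor Tlr3 by -0.83 and the kinase Ikbke by -0.82 (edgeR adjusted p = 0.00897, 0.0172 and 0.00936). The peptide transporter Tap1 was lower as well.

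The split between the replicate sets recurred in the wider list. TCKO replicate 3 was below all 3 WT libraries in 39 of the 67 genes and above in 7, whereas TCKO replicates 1 and 2 were above in 29 and 32 and below in 17 and 15. Over all tested genes each of these shares was 33.2% to 35.8%. Replicates 1 and 2 gave a median difference of 0.10 and replicate 3 one of -0.21, as log2(CPM + 1). At an interaction adjusted p under 0.05 (edgeR), TCKO minus WT was more negative in replicate 3 for 20 of the 67. It was more positive for 2. The shares of all tested genes were 7.42% and 7.08%. The 20 included 5 of 9 tested antigen presentation genes. H2-K1, a class I histocompatibility chain named here after its values were seen, had counts of 602, 779 and 671 in WT and 777, 739 and 263 in TCKO. Trex1, the nuclease that clears cytosolic DNA, had 0 counts in every library. Its exons overlap those of Atrip on the same strand, and how reads common to both were counted is not given in the sources used here.

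Markers of other cell types were measured beside these genes, since macrophages also express many of them. The summed level of 10 macrophage and haematopoietic markers was 730, 747 and 416 CPM in WT replicates 1, 2 and 3. In TCKO replicates 1, 2 and 3 it was 529, 561 and 168 CPM. Most of the sum was Lyz2, at 595, 616 and 325 CPM in WT and 455, 488 and 131 CPM in TCKO. Adgre1 and Cd14 did not follow the sum, being highest among the WT libraries in replicate 3 (24.4 and 8.24 CPM). None of the 10 was at 0 in all libraries, and Csf1r, Adgre1 and Itgam fell in TCKO by edgeR. Within replicates 1 and 2 the sum was thus lower in TCKO, where Ifit1, Isg15 and Bst2 were higher, and within replicate 3 it was lower too, where Ifit1 and Isg15 were lower. Its part in the results was not tested. The sum of 6 endothelial markers was 2.89 to 6.34 CPM and that of 5 skeletal muscle markers 0.561 to 9.58 CPM. In bulk RNA, fewer cells of a type and less RNA per cell cannot be told apart. The osteoblast label was met in part. The sum of 8 markers was 30190 to 32550 CPM in WT and 14260 to 22410 in TCKO, nearly all of it the collagens Col1a1 and Col1a2, with Runx2 and Sp7 present in every library. The phosphatase Alpl fell from 30.4 ± 23.6 CPM in WT to 2.56 ± 1.22 in TCKO (SD, n = 3 each, edgeR adjusted p = 0.00743), Ibsp had 17 to 70 counts, and the late markers Dmp1 and Bglap had at most 3 counts in any library. Chondrocyte markers summed to 6180 to 8092 CPM in WT and 682.5 to 959.7 in TCKO. Most of that sum was Col2a1, at 5728 to 7539 CPM in WT and 598.1 to 843.2 in TCKO.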

How the data were processed

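Polyadenylated RNA of 3 WT and 3 TCKO libraries was measured (NEBNext Ultra II Directional kit). The authors deposited raw counts per gene, not normalised, and exon length per gene in another column (unit other). The submitters' processing notes name CASAVA, STAR 2.7.0e, featureCounts 2.0.0 and DESeq2 with GRCm38, and the annotation was Ensembl's. The strand setting of the counting is not given in the sources used here. Samples were grouped by the genotype label, and 0 columns were left unassigned. Symbols were found for 55144 of 55471 gene identifiers, 1 of the 39 genes (Sting1) through a RefSeq synonym.

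Genes were filtered with filterByExpr, which left 13826 genes holding 99.7% to 99.8% of counts, scaled with TMM and tested with edgeR 4.0.16 (R 4.3.3, glmQLFit and glmQLFTest, no covariate, limma 3.58.1 loaded with it), and p-values were adjusted over all tested genes by Benjamini-Hochberg at 0.05. The study's 2-fold cutoff is counted beside it. SE was derived from the F statistic. CPM values are TMM-scaled, and RPKM divides them by exon length. Differences within replicate sets are of log2(CPM + 1). The scripts were tested on simulated data. Alternatives were DESeq2 1.42.0, other scaling, filters and fits, a replicate block, each library left out, and replicates 1 and 2 alone or summed. Deviations from the genotype means correlated at 0.224, 0.236 and 0.364 between same-numbered libraries, all over 0.1. The numbers were therefore used as a block in alternative fits, and the main fit ignores them. That check comes from the data. Numbers 1 and 2 crossed gave 0.247 and 0.209, so it cannot tell which of these libraries belong together. The genes, the wider pathway list and the tests were chosen with earlier results of these data known. Genes past the threshold, or over 2-fold, are given per library, with examples of each role by RPKM, and up to 5 called pathway genes in each direction. Some genes that this rule names are not reported here. At 3 libraries per genotype, and 8019999 to 10177214 counts each, genes with a handful of counts were not tested. Promoter sequences are RefSeq's.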

Additional observations from a re-analysis of the deposited data

Results flagged for a closer look

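An interaction term in edgeR was tested at an adjusted p under 0.05. By it, the genotype difference in replicate 3 differed from that in replicates 1 and 2 for 19 of the 33 tested genes. In 18 of these the value of TCKO minus WT, with its sign, was more negative in replicate 3. The log2 value of replicate 3 minus replicates 1 and 2 was -2.72 for Ifit1, -1.75 for Ifit3, -2.59 for Isg15, -3.44 for Oasl2, -1.99 for Usp18, -3.65 for Zbp1, -3.26 for Ifi44 and -3.06 for Rtp4 (edgeR adjusted p = 6.0e-09, 0.0394, 5.7e-09, 1.8e-07, 0.0455, 0.00185, 5.9e-05 and 1.5e-05). It was -1.55 for Bst2, -1.36 for Trim25, -1.58 for Irf7, -1.49 for Gbp3, -1.22 for Xaf1 and -1.07 for Ifih1 (edgeR adjusted p = 1.5e-08, 1.6e-09, 0.00381, 0.0293, 0.00463 and 0.0229). Smaller values were -0.93 for Parp14, -0.68 for Irf9, -0.63 for Ifi35 and -0.41 for Stat2 (edgeR adjusted p = 0.0321, 0.00293, 0.0163 and 0.0442). Irf1 was the exception, at 0.59 (edgeR adjusted p = 0.0178).

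The share of all tested genes with such a difference was 7.42% in the negative and 7.08% in the positive direction. Zbp1 and Usp18 rest on 35 counts or fewer per library. Each value compares 1 WT and 1 TCKO library of replicate 3, of different sex, with the close pairs of replicates 1 and 2, and what sets replicate 3 apart was not tested.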

How the results depend on the processing

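In all of the 18 alternative fits that they entered (17 for Isg20), the log2 fold changes of Isg20, Xaf1, Ifngr1 and Ddx58 kept their direction. Scaling by RLE or upper quartile, the robust fit, DESeq2 and the RPKM minimum left 1 gene higher and 3 lower. With no filter 4 genes of the list were higher and 4 were over 2-fold, with 5 pathway genes higher and 10 lower. With a mean of at least 50 counts 1 was over 2-fold and 1 pathway gene higher. With the replicate block 2 were higher, 3 pathway genes were higher and 9 lower, and Stat2 stood at -0.0089, and with a batch term for replicate 3 there were 2 higher, 6 and 11 pathway genes higher and lower, and Stat2 at -0.0062. The replicate block changed no other call of the list. Replicates 1 and 2 alone gave 15 higher, 5 lower and 10 over 2-fold, 22 and 14 pathway genes, and turned Ifit2 to 0.037, Irf9 to 0.22 and Ifi44 to 0.55. Summed replicates 1 and 2 gave 0 higher, 0 lower and 0 over 2-fold, 0 and 1 pathway genes, and Stat2 at -0.040. Adding the replicate block to that sum gave 0 higher, 1 over 2-fold, 1 pathway gene higher, Irf1 at 0.023 and Stat2 at -0.071. The sum leaves 2 libraries per genotype.

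Leaving out 1 library at a time gave 0 to 10 higher, 2 to 3 lower and 1 to 8 over 2-fold, and 0 to 8 and 4 to 9 pathway genes. The log2 fold changes that turned sign ranged from -0.24 to 0.25 for Ifit2, -0.31 to 0.083 for Irf1, -0.15 to 0.11 for Irf9, -0.12 to 0.25 for Stat2, -0.050 to 0.19 for Eif2ak2, -1.19 to 0.24 for Ifi44, -0.064 to 0.54 for Parp14, -0.17 to 0.29 for Gbp2 and -0.15 to 0.056 for Adar. None of these 9 was called over all 6 libraries. The causes of these moves, and of the lost calls named in the report, were not tested. Counts limit the low genes: 6 of the 39 were removed by filterByExpr, while the fit with no filter tested all 39, and 8 interferon genes at 0 lie under 3 counts per library.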
